A study of Mus musculus with 7 samples.

Results

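The genes described here are 9 components and targets of Sonic hedgehog (Shh) signalling, namely the receptor-level genes Boc, Ptch1 and Smo, the inhibitor Sufu, the transcription factors Gli1, Gli2 and Gli3, and the mitogenic targets Mycn and Ccnd1. A peak was assigned to a gene when its centre was inside the gene or no more than 50 kb away (mm10, GENCODE M21). By this rule the windows of the 9 genes, out of 21951 protein-coding genes, held 128 of 31400 H3K27ac peaks, 7 of 1946 Chd7 peaks of wild-type (WT) cells and 0 of 96 Chd7 peaks of Chd7-deficient cells. They also held 25 of 17030 Top2b peaks of WT neurons and 35 of 21505 Top2b peaks of Chd7-deficient neurons. The windows were 105.8 to 366.8 kb long and together spanned 1671.1 kb.

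All libraries came from cerebellar granule cells of mice at postnatal day 7, of strain C57BL/6 by the labels and C57BL/6N by the study's methods. ChIP-seq, in which an antibody enriches DNA fragments bound by a protein or carrying a histone mark, was done on freshly isolated granule neuron progenitors (GNPs) for H3K27ac (WT), Chd7 (WT) and Chd7 (Chd7-deficient), and on cerebellar granule neurons (CGNs) for Top2b (WT and Chd7-deficient). CGNs were GNPs kept for 48 hours in culture without SHH, so the Top2b libraries come from cells withdrawn from the mitogen, whereas the GNP libraries come from cells taken directly from pups. The labels call the mutant samples Chd7 KO. The study's mutants in granule cells were Atoh1-Cre::Chd7 f/f, in which Cre acts in the Atoh1 lineage and the study saw some Chd7 protein left in the posterior lobe. WT animals were Chd7 f/f where the study compared them with these mutants, but the genotype of the WT pups of these ChIP libraries and the number of pups per library were not given. Pups were not separated by sex. Each condition had 1 library and the groups thus had no replicates, so all counts below are descriptions with no test, and differences between libraries could not be set against the spread between animals. The tables hold peaks and not reads, and the depth of each library is unknown.

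Shh is released by Purkinje cells and is the main mitogen of GNPs. Without ligand, the receptor Ptch1 holds Smo inactive, and Sufu together with processed Gli3 keeps target genes off. Ligand binding, helped by co-receptors such as Boc, releases Smo and lets Gli2 and Gli1 activate targets, among them Gli1 and Ptch1 themselves and the growth regulators Mycn and Ccnd1. Chd7 is a chromatin remodeller that slides nucleosomes, Top2b is the type II DNA topoisomerase of postmitotic neurons, and H3K27ac is a histone mark of active promoters and enhancers.

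The cell type was checked with marker genes. H3K27ac lay over an annotated start of 6 of 7 GNP markers, against 40.7% of all protein-coding genes. The exception was Atoh1, with 9 peaks in its window but none over its start. It lay over a start of 0 of 4 Purkinje cell, 0 of 3 microglia and 0 of 3 endothelial markers, 2 of 3 interneuron markers, and 1 of 4 astrocyte and 1 of 4 oligodendrocyte markers.

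All 7 Chd7 peaks coincided with H3K27ac. They fell at 6 of the 9 genes (Ptch1, Sufu, Gli1, Gli2, Gli3 and Mycn, the last with 2), whereas 14.3% of all protein-coding genes had a WT Chd7 peak within the same distance. Boc, Smo and Ccnd1 had none. Shares over all genes, here and below, were not matched for window length. By gene length Gli2 and Gli3 were at the 96.0th and 96.9th percentile, and Mycn at the 22.5th. By Chd7 peaks per 100 kb, the genes with a peak ran from the 86.4th (Gli3) to the 99.4th percentile (Mycn). Genes without a peak stand at the 85.7th on that measure. A summit is where most Chd7 fragments overlapped. Sequences at 6 of the 7 summits and at the Ptch1 promoter are given here because they differ widely in base composition. Each is 101 bases of the mm10 reference, plus strand, centred on the summit, except for Ptch1. There the 250 bases before the RefSeq start are given on the minus strand, and they overlap the Chd7 peak but not its summit. Every CG dinucleotide is in capitals.
Ptch1 promoter, chr13:63565736-63565985: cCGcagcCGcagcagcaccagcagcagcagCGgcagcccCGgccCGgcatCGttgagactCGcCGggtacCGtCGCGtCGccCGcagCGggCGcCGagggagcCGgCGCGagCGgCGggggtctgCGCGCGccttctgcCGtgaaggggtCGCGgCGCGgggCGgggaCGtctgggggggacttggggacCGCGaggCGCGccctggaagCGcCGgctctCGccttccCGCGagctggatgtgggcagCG
Sufu, chr19:46422561-46422661: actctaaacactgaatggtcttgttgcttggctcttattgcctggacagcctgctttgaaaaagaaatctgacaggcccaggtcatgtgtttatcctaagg
Gli1 window, chr10:127289506-127289606: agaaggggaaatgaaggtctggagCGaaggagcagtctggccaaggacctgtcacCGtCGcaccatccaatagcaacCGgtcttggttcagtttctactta
Gli2, chr1:118864379-118864479: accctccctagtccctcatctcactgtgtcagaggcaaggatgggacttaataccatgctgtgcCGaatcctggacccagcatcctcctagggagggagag
Gli3 window, chr13:15759236-15759336: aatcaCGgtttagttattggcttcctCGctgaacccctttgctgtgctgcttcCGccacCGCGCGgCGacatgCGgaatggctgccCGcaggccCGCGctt
Mycn downstream, chr12:12904617-12904717: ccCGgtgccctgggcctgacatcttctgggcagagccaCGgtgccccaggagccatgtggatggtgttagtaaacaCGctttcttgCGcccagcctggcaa
Mycn promoter, chr12:12941904-12942004: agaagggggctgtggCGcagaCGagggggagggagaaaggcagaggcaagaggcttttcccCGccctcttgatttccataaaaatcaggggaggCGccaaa

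The number of CG dinucleotides in 300 bases around the summit ran from 4 at Sufu, through 6 at the Gli1 window, 7 at Gli2, 13 at the Mycn promoter, 19 downstream of Mycn and 21 at Gli3, to 47 at Ptch1. The median of these 7 windows was 13 and that of all 1902 WT Chd7 windows on placed chromosomes was 9.0. The Ptch1 window was more CG-rich than almost all Chd7 windows (98.3rd percentile), whereas the intronic Sufu and Gli2 windows lay below the middle (30.4th and 45.9th percentile).

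The fold enrichment of the 7 Chd7 peaks over the local background ran from 3.50 to 5.15 with a median of 4.36, close to the median of 4.07 over all WT Chd7 peaks. The H3K27ac peaks under them were larger in the median, though not every one was. Their median fold enrichment was 16.26 and their median width 4170 bp, compared with 10.59 and 1529 bp over all H3K27ac peaks that overlapped Chd7. The peaks at Gli2 (791 bp) and Gli3 (1027 bp) were narrower than that last median, and the others were wider. Only the fold enrichment at Gli3 (8.24) was below 10.59. At 5 of the 6 genes with Chd7, the H3K27ac peak of highest fold enrichment in the window carried Chd7, and at the other, Ptch1, the second highest did. Over all protein-coding genes with Chd7 and at least 2 H3K27ac peaks in the window, the highest peak carried Chd7 in 54.8%. The Chd7 and H3K27ac summits were 53 bp apart at Gli2 and 206 to 676 bp apart at the other 6 peaks. The overlap itself was complete for the 7 peaks, and 77.9% of all WT Chd7 peaks overlapped H3K27ac. Read the other way, 7 of the 128 H3K27ac peaks (5.47%, 95% Wilson interval 2.67 to 10.9%, which covers counting error only) carried Chd7, near the 4.98% of all H3K27ac peaks. The plot of Chd7 against H3K27ac enrichment shows the 7 pairs among all others.

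**Figure D1:**
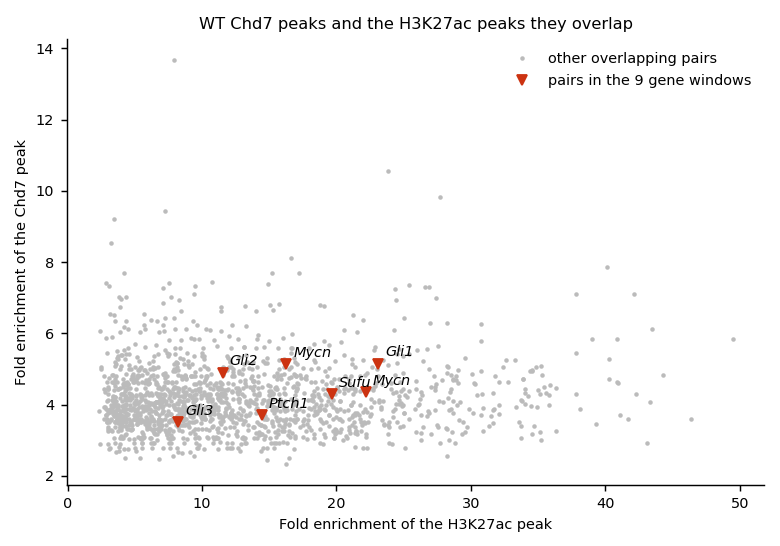
Fold enrichment over the local background of each WT Chd7 peak (vertical axis) against that of the H3K27ac peak it overlaps (horizontal axis). Red triangles are the 7 pairs in the windows of the 9 genes, whose Chd7 enrichment lies between 3.50 and 5.15, in the middle of the grey points, while their H3K27ac enrichment reaches 23.08.

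In Chd7-deficient GNPs no Chd7 peak was listed in any of the 9 windows, and none of the 7 WT peaks overlapped one. This is also what most genes showed, since 0.205% of protein-coding genes had a peak of that library within 50 kb. The share of all WT Chd7 peaks that overlapped a peak of Chd7-deficient GNPs was not computed. That library held 96 peaks against 1946 in WT, so little overlap was possible for any WT peaks. The 7 peaks were thus called in the WT library and not in the mutant library, with 1 library each, and this is not particular to these genes.

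The H3K27ac peaks of the 9 windows were mostly inside the genes. Of the 128, 103 lay within the gene body, 7 upstream and 18 downstream. Their median fold enrichment was 3.96 against 4.35 over all H3K27ac peaks, and their median width 708 bp against 646 bp. An H3K27ac peak lay over an annotated start of 6 of the 9 genes (Boc, Ptch1, Smo, Sufu, Gli2 and Mycn), while 40.7% of all protein-coding genes had one. Gli1, Gli3 and Ccnd1 had none, though at Gli1 and Gli3 a peak lay within 1 kb of a start.

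The share of the window covered by H3K27ac peaks varied widely among the genes, in graded steps. It includes peaks at or near the starts of neighbouring genes, as in the windows of Sufu, Smo, Gli1 and Ccnd1. In that of Sufu these had fold enrichments of 17.58 near the start of Actr1a and 14.02 near that of Trim8. It was 19.4% at Boc, 18.3% at Sufu, 12.52% at Ptch1 and 11.5% at Mycn. It was 8.04% at Gli1, 7.81% at Gli2 and 4.68% at Smo. Ccnd1 with 1.32% and Gli3 with 0.367% fell below the median of all protein-coding genes, 1.35%. Boc and Sufu were above the 99th percentile of all genes on this measure (99.7 and 99.6), whereas Gli3 was at the 30.6th. With 1 library, neighbours in this order cannot be told apart by any replicate error.

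**Figure D2:**
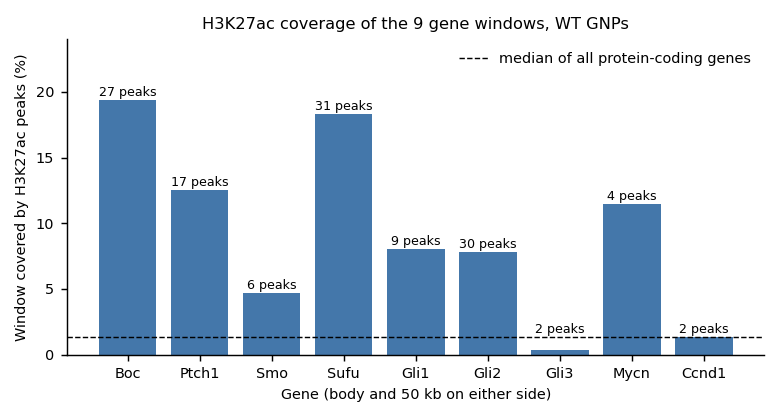
Percent of each gene's window (gene body and 50 kb on either side) covered by H3K27ac peaks in WT GNPs, with the number of peaks above each bar and the median of all protein-coding genes as a dashed line at 1.35%. Boc and Sufu have the highest bars and Gli3 and Ccnd1, with 2 peaks each, lie below the line.

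H3K27ac peaks that followed one another closely, at the default distance of super-enhancer callers, were stitched into 17539 regions. These were ranked by the sum of width times pileup. Pileup is the height of fragment coverage at the summit, and for H3K27ac it was not a whole number of fragments. The 612 regions past the point where the ranked curve reaches a slope of 1 were called super-enhancer-like. Such a region overlapped 4 of the 9 genes, against 4.18% of all protein-coding genes. The regions were those of Boc (rank 78, 84.4 kb, 27 peaks), Sufu (rank 80, 58.7 kb, 17 peaks), Ptch1 (rank 91, 49.5 kb, 17 peaks) and Mycn (rank 200, 6.6 kb, 1 peak). The first 3 are chains of many peaks along a gene, while the Mycn region is a single wide peak. The Sufu region begins with the peak near the start of the neighbour Actr1a. Gli2, with 30 H3K27ac peaks, broke into 6 regions, of which the highest was rank 1462. Of the 7 Chd7 peaks, 5 lay in a super-enhancer-like region (71.4%), compared with 16.2% of all WT Chd7 peaks, and the exceptions were those of Gli2 and Gli3. Of these 5, 3 lay in the regions of Ptch1, Sufu and Mycn. The others lay in a region downstream of Mycn (rank 269) and one in the window of Gli1 (rank 196), which overlap neither gene.

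**Figure D3:**
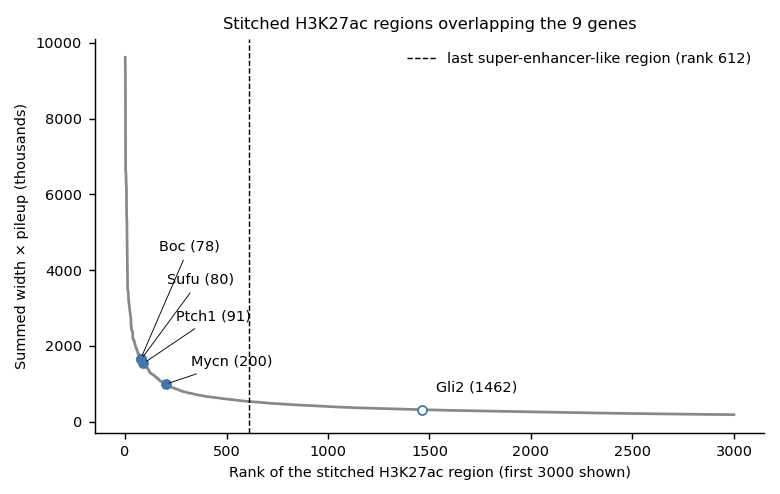
Summed width times pileup of stitched H3K27ac regions (vertical axis) by rank (horizontal axis, first 3000 of 17539). The filled points for Boc, Sufu, Ptch1 and Mycn lie left of the dashed line at rank 612, and the open point for the highest Gli2 region, rank 1462, lies right of it.

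Boc encodes a cell-surface co-receptor that binds Shh, and its window had the highest H3K27ac coverage of the 9 (19.4%, next to 18.3% at Sufu, which had more peaks and a higher maximum) yet no Chd7 peak. Boc (ENSMUSG00000022687.12, chr16:44485049-44558897, minus strand) had 27 H3K27ac peaks, 25 of them inside the gene. The peak over its start was 3479 bp wide with a fold enrichment of 14.88, the highest in the window, and an intronic peak 55.9 kb into the gene followed with 12.82. Among the protein-coding genes with at least 27 H3K27ac peaks in their window, 59.4% had a WT Chd7 peak. Of the super-enhancer-like regions, 40.5% held a WT Chd7 peak, and of those ranked 1 to 100, 54.0% did. The Boc region was among those that held none.

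Ptch1 encodes the Shh receptor, which is itself induced by the pathway. Ptch1 (ENSMUSG00000021466.12, chr13:63508328-63573598, minus strand) had 17 H3K27ac peaks, all inside the gene. Of these, 3 stood far above the rest. They lay 0.6 kb from the distal gene start (fold enrichment 12.79), over the internal start given by RefSeq, 7.6 kb into the gene (14.44, 5360 bp wide), and in an intron 20.5 kb into the gene (14.63). The other 14 ran from 2.74 to 5.74. The Chd7 peak, chr13:63565444-63565827, had 18 fragments at its summit, 3.70-fold over background (−log10 q 3.16), and lay in an annotated UTR, 0.17 kb from an internal start. It was thus at the internal Ptch1 promoter, and it was weaker than most WT Chd7 peaks (31.2nd percentile of fold enrichment).

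Smo encodes the membrane protein that passes the signal on when Ptch1 is occupied. Smo (ENSMUSG00000001761.7, chr6:29735503-29761365, plus strand) had 6 H3K27ac peaks. The peak over its start was 1721 bp wide with a fold enrichment of 9.24, near the median of 9.09 over genes with a marked start. The highest, 9.60, lay 16.1 kb upstream, nearer to the start of Tspan33 than to that of Smo. Smo therefore had a marked promoter without the long acetylated stretches of Boc, Ptch1 and Sufu, and no Chd7 peak.

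Sufu encodes the cytoplasmic protein that binds and restrains the Gli factors. Sufu (ENSMUSG00000025231.17, chr19:46396896-46488804, plus strand) had 31 H3K27ac peaks, the most of the 9 genes, and its window was shared with 5 other protein-coding genes. The peak over its start had a fold enrichment of 10.66. The highest in the window, 19.68, was a peak of 4170 bp in an intron, and the Chd7 peak lay in it. That Chd7 peak, chr19:46422386-46422936, was 25.7 kb into the gene and had 33 fragments at its summit, 4.30-fold over background (−log10 q 8.09). At Sufu, Chd7 was thus found at an intronic site and not at the promoter.

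Gli1 encodes the activator whose own transcription is switched on by the pathway. Gli1 (ENSMUSG00000025407.7, chr10:127329882-127341974, minus strand) had 9 H3K27ac peaks in its window, but only 3 inside the gene, with fold enrichments of 4.75, 4.95 and 4.79. None of these lay over an annotated start of Gli1, but their summits were 0.17, 0.4 and 0.42 kb from the nearest Gli1 start. The higher peaks of the window were at the starts of neighbours, with 23.08 near Ddit3, 20.38 at R3hdm2 and 11.66 at Mars. The Chd7 peak, chr10:127289323-127289714, lay 40.3 kb beyond the 3′ end of Gli1 and 0.54 kb from a start of Mbd6, and had 29 fragments at its summit, 5.15-fold over background (−log10 q 9.07). The Chd7 peak counted for Gli1 was therefore at another gene's start, and no Chd7 peak lay in or within 10 kb of Gli1.

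Gli2 encodes the main activator of the pathway and Gli3 its main repressor, and their loci differed. Gli2 (ENSMUSG00000048402.14, chr1:118834132-119053619, minus strand) had 30 H3K27ac peaks, all inside its 219.5 kb. The peak over its start was 4882 bp wide with a fold enrichment of 7.87. The highest, 11.53, was a narrow peak of 791 bp far inside the gene, and it carried the Chd7 peak, chr1:118864229-118864717, in an intron 189.2 kb from the gene start, where 22 fragments overlapped, 4.90-fold over background (−log10 q 6.35). No other protein-coding gene lay in this window.

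Gli3 (ENSMUSG00000021318.15, chr13:15463235-15730026, plus strand), although the longest of the 9 with 266.8 kb, had 2 H3K27ac peaks. One was a weak peak of 318 bp (fold enrichment 3.54) just downstream of the gene start. This peak overlapped no annotated GENCODE start, but it overlapped the RefSeq promoter and ended 32 bp before the RefSeq start. The other, 1027 bp with 8.24, was intergenic, and the Chd7 peak, chr13:15759198-15759506, lay in it, 29.3 kb beyond the 3′ end of the gene. This Chd7 peak was the weakest of the 7, with 15 fragments at its summit, 3.50-fold over background (−log10 q 2.32). It was also the only one of the 7 that lay over a Top2b peak of WT CGNs.

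Mycn encodes the proto-oncogenic transcription factor that drives GNP division, and it was the only member with 2 Chd7 peaks. Mycn (ENSMUSG00000037169.15, chr12:12936093-12941914, minus strand) was covered for most of its length, and beyond its start, by a single H3K27ac peak of 6588 bp with a fold enrichment of 22.18 (97.9th percentile of all H3K27ac peaks). One Chd7 peak, chr12:12941711-12942037, lay 0.04 kb from its start and had 21 fragments at its summit, 4.36-fold over background (−log10 q 5.06). The other, chr12:12904267-12905046, lay 31.4 kb beyond the 3′ end in an exon of the non-coding gene 4930519A11Rik, within an H3K27ac peak of 4865 bp and fold enrichment 16.26. It was the most significant of the 7, with 36 fragments at its summit, 5.13-fold over background (−log10 q 11.35). In Mycn, unlike the other members, both the promoter and a distant acetylated site thus carried Chd7.

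RefSeq (GRCm38) promoters of 300 bases were found for 6 of the 9 genes (Gli2, Gli3, Mycn, Ptch1, Smo and Sufu). The letters CAGATG, an E-box of the kind bound by bHLH factors such as Atoh1, stood in 2 of them, Mycn and Gli3, and in 17.2% of all 32817 promoters. Of these 2, only the Mycn promoter overlapped a Chd7 peak.

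Ccnd1 encodes cyclin D1, which drives entry into the cell cycle and is a standard marker of proliferating GNPs. Ccnd1 (ENSMUSG00000070348.5, chr7:144929931-144939925, minus strand) had neither an H3K27ac peak over a start nor a Chd7 peak. Its only own H3K27ac peak was 319 bp wide, with a fold enrichment of 3.46, in an intron 2.22 kb from the nearest start. The other peak in the window, with 11.42, was at the start of the neighbour LTO1. The 2 mitogenic targets thus differed in these peak tables, with a strongly acetylated start at Mycn and no H3K27ac peak over a start at Ccnd1.

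**Figure D4:**
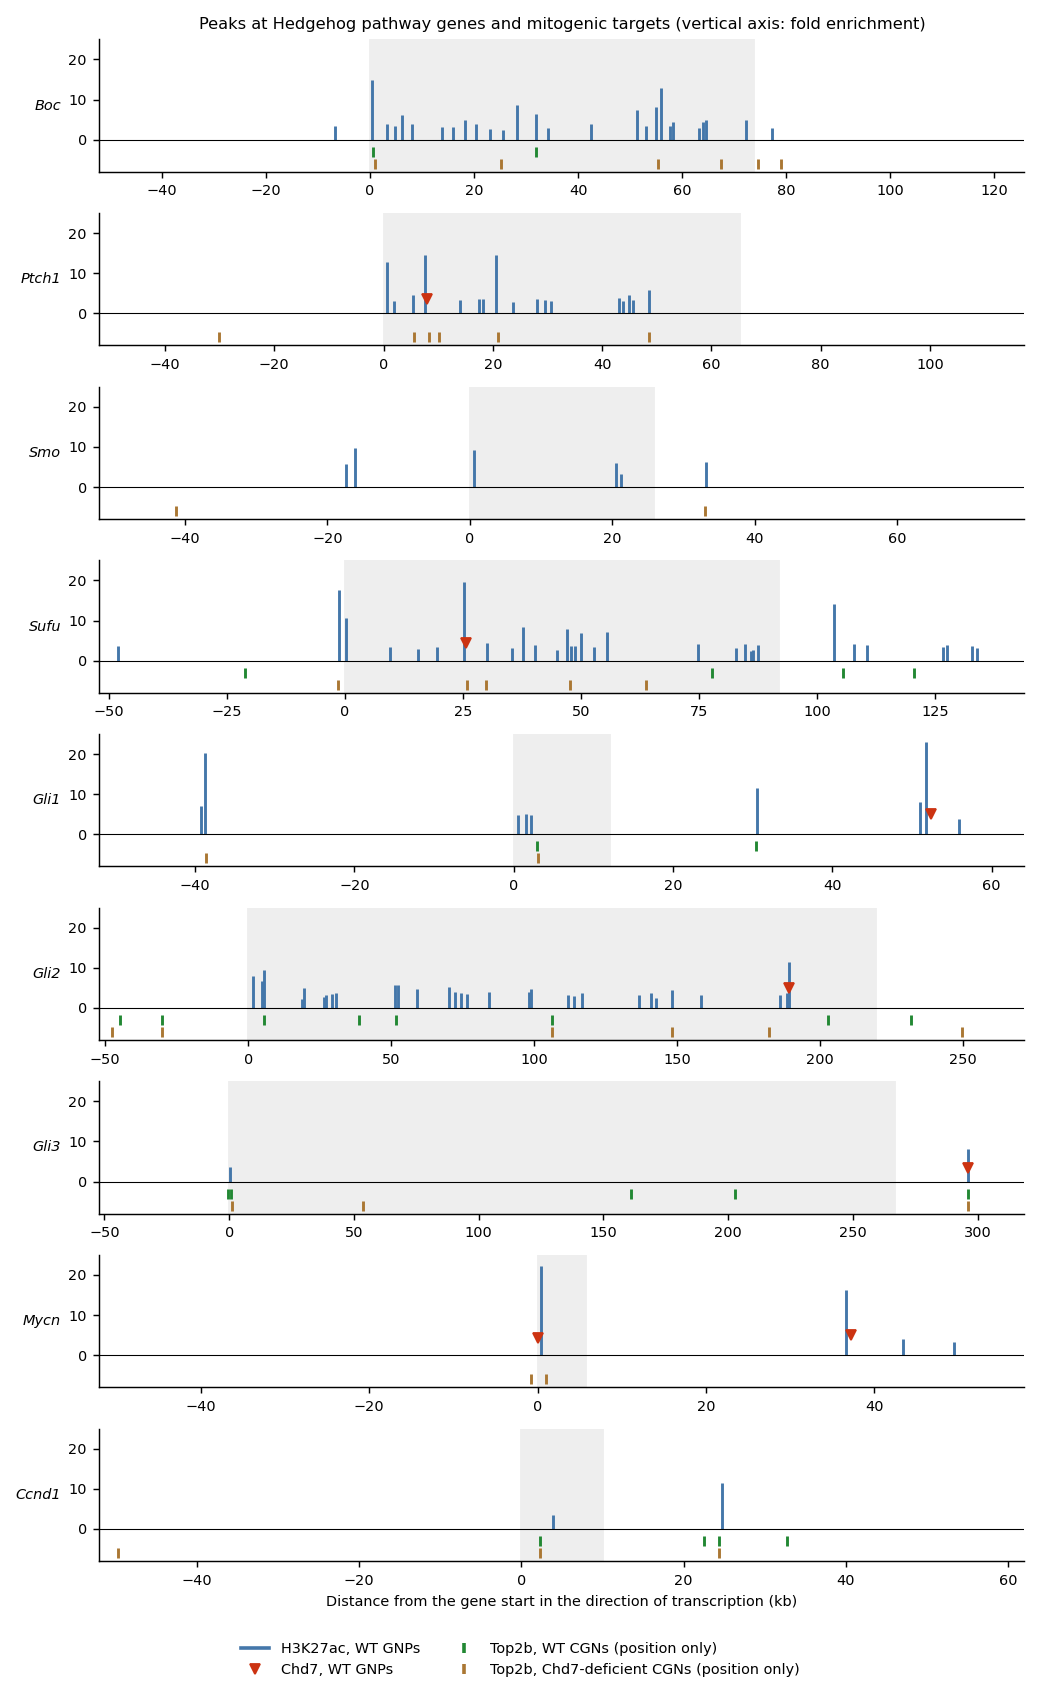
Peaks along each of the 9 genes by distance from the gene start in the direction of transcription (kb), with the gene body shaded. Blue lines give the fold enrichment of H3K27ac peaks and red triangles that of Chd7 peaks in WT GNPs, and ticks below 0 mark the positions only of Top2b peaks in WT (green) and Chd7-deficient (brown) CGNs. Boc, Ptch1, Sufu and Gli2 carry many blue lines inside the gene, Gli3 and Ccnd1 carry 1 each.

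Gli factors bind the letters GACCACCCA, and these were searched on both strands. None of the 7 Chd7 windows of 300 bases held them, and 0.368% of all WT Chd7 windows did. In the 300 bases around the summits of the 128 H3K27ac peaks, 0 held them, against 0.309% of all H3K27ac windows. The relaxed letters GACCNCCCA, with any base at N, stood in 1 of these 128 windows (0.781%), against 1.01% of all. Over their whole length, 5 of the 128 H3K27ac peaks held GACCACCCA (3.91%), against 1.04% of all H3K27ac peaks on placed chromosomes. Per length of peak this was 3.46 matches per 100 kb in the 9 windows and 1.13 per 100 kb over all peaks. The first rate rests on 5 matches, and a match is a description of the letters and not a site of binding. The 5 matches are shown because Boc, Ptch1, Smo and Gli2 are themselves components of the pathway. Each is given with 10 bases of the mm10 reference on either side, on the strand that reads GACCACCCA (capitals).
Boc, chr16:44552146-44552174, plus: tattgtccaaGACCACCCActggaaatag
Ptch1 upstream of the internal start, chr13:63566425-63566453, plus: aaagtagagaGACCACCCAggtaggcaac
Ptch1 distal start, chr13:63573455-63573483, minus: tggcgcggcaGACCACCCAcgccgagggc
Smo upstream, chr6:29719063-29719091, minus: acatggtgggGACCACCCAtgtggtagag
Gli2, chr1:118969533-118969561, plus: ggcctgcccaGACCACCCAgtctccagca
Ptch1 was the only member with 2 matches. The internal one lay in the same 5360 bp H3K27ac peak as the Chd7 peak, and the distal one in the peak at the gene start. The Smo match lay in the upstream peak that is nearer to Tspan33. The peaks of Sufu, Gli1, Gli3, Mycn and Ccnd1 held none.

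Motifs of other factors of the granule lineage were read in the same way. The E-box CAGCTG stood in 1 of the 7 windows (Gli2) and in 26.1% of all WT Chd7 windows, and the E-box CAGATG in 3 (Sufu, the Gli1 window and the Mycn promoter) and in 31.2%. The Zic letters CAGCAGG stood in 1 (Gli2) and in 14.6%, and the nuclear factor I half-site TTGGCA in 2 (Sufu and Gli3) and in 25.5%. The 7 windows are too few to set these shares apart from those of all Chd7 peaks.

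Top2b was mapped in CGNs, 48 hours after withdrawal of SHH. In WT CGNs 25 Top2b peaks fell at 6 of the 9 genes, with 8 at Gli2, 5 at Gli3, 4 each at Sufu and Ccnd1, and 2 each at Boc and Gli1, while 62.1% of protein-coding genes had at least 1. Ptch1, Smo and Mycn had none. In Chd7-deficient CGNs all 9 genes had at least 1 of 35 peaks, with 6 each at Boc, Ptch1 and Gli2, 5 at Sufu, 3 each at Gli3 and Ccnd1, and 2 each at Smo, Gli1 and Mycn, while 70.9% of all genes did. The number was higher in the Chd7-deficient library at 5 genes, lower at 3 and equal at Gli1. Over all genes it was higher in 43.4% and lower in 21.9%, and the whole table of the Chd7-deficient library held 1.26 times as many peaks, against 1.40 times in the 9 windows.

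Ptch1 differed most between the 2 libraries, with 0 peaks in WT and 6 in Chd7-deficient CGNs, and 0.178% of protein-coding genes had no WT Top2b peak and at least 6 in the Chd7-deficient library. This gene was singled out after its values were seen. Of the 6 peaks, 5 lay inside the gene over H3K27ac peaks of WT GNPs, and 2 of these lay within 1 kb of an internal start. At Mycn the 2 peaks of the Chd7-deficient library lay 1.0 kb inside and 0.8 kb upstream of the gene start, both within the wide H3K27ac peak. Since each genotype was 1 library of unknown depth, the genotype and the library cannot be told apart in these counts.

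**Figure D5:**
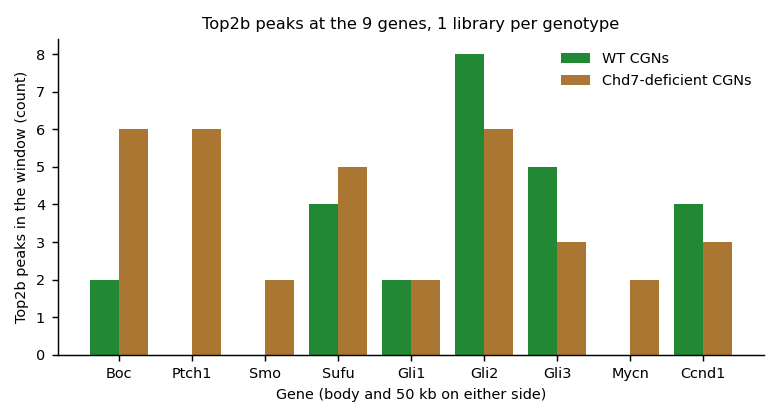
Number of Top2b peaks in the window of each gene in the WT library (green) and the Chd7-deficient library (brown) of CGNs. Ptch1 has 0 and 6 peaks, Mycn and Smo 0 and 2, and Gli2 and Gli3 have fewer brown than green peaks (8 and 6, 5 and 3).

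Most called Top2b peaks did not overlap a called peak of the other library. Each library had its own threshold, so a site without a call can still hold Top2b. The study compared Top2b association site by site and reported a change upon Chd7 loss at a minority of sites. Of the 25 WT peaks in the windows 8 overlapped a peak of the Chd7-deficient library (32.0%, against 16.8% over all WT peaks), and of the 35 peaks of the latter 8 overlapped a WT peak (22.9%, against 13.3%). One of these shared sites lay in an intron of Ccnd1, 0.59 kb from a start. The WT peak there, chr7:144937414-144937809, was on line 7 of 17030 of its table, and the peak of the Chd7-deficient library on line 80 of 21505. The tables carry no score and are not sorted by position, and what the order of lines stands for was not stated. Of the first 10% of the WT lines, 54.3% overlapped a peak of the other library, and of the last 10%, 3.82%. No H3K27ac peak of GNPs lay over this Ccnd1 site.

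The overlap of Top2b with the acetylated sites of GNPs differed between the libraries. Of the WT Top2b peaks in the windows 8 of 25 (32.0%) lay on H3K27ac, against 17.4% of all WT Top2b peaks, and of those of Chd7-deficient CGNs 19 of 35 (54.3%), against 26.6% of all. Of the 7 Chd7 peaks 1 (Gli3) overlapped a WT Top2b peak, against 16.6% of all WT Chd7 peaks, and 3 (Ptch1, Sufu and Gli3) overlapped one of the Chd7-deficient library, against 34.2%. The Chd7 site beyond Gli3 was thus the one at which Top2b was found in both libraries.

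The rest of the pathway was read from 52 further genes. A WT Chd7 peak lay within 50 kb of 15 of them, against 14.3% of all protein-coding genes. These were 1 of 8 genes for ligands and their release, 1 of 6 for receptors, co-receptors and decoys, 2 of 13 for cilium and signal transduction, 3 of 12 for kinases and protein degradation, and 8 of 13 for proliferation. H3K27ac lay over a start of 33, against 40.7% of all genes, and a super-enhancer-like region overlapped 5, against 4.18% of all genes. All 12 genes for kinases and degradation had H3K27ac over a start, compared with 2 of 8 genes for ligands and 2 of 6 for receptors. No gene of the 52 had a peak of Chd7-deficient GNPs in its window, against 0.205% of all genes with one.

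Of the 52, 4 had 2 WT Chd7 peaks each, namely Cdkn1b, the p27 inhibitor of the cell cycle, Ccnd2, the second D-type cyclin of GNPs, Gas1, a co-receptor that binds Shh as Boc does, and E2f1, a driver of S phase. The Chd7 peaks of Cdkn1b had fold enrichments of 7.11, 22.2 kb upstream, and 2.91, in its UTR. Those of Gas1 lay within 0.9 kb of its start with 5.01 and 4.47. Those of Ccnd2 lay 37.1 kb downstream and 29.4 kb upstream of its start, with 4.97 and 4.69, and those of E2f1 were 3.74 at its start and 4.09 at 43.5 kb upstream. Of genes with 1 Chd7 peak, Ccne1 (cyclin E1) had 4.85 and Tulp3, which traffics receptors into the cilium, had 4.52. They were named because these were the highest folds among the ties. The peak counted for Tulp3 was annotated as intergenic, 7.1 kb upstream of it. Whether it lay at the start of another gene was not examined, so it cannot be ascribed to Tulp3. A peak within 50 kb of several genes was counted for each of them, so these counts are not of separate peaks.

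Gene likeness was measured as the distance over 4 standardized measures of each gene (H3K27ac coverage of the window, H3K27ac fold at a start, and Chd7 and WT Top2b peaks per length), across all protein-coding genes and 3 libraries. Nearest to Mycn were Btg2, Mapk7 and Mfap4, at distances of 0.317, 0.417 and 0.707. Nearest to Gli1 were Lrrc23, Tmc4 and Eno2 (0.064, 0.111 and 0.122), and nearest to Gli2 were Itsn1, Fank1 and Gm973 (0.374, 0.565 and 0.572). The Gli1 values include peaks at the starts of neighbours, its only Chd7 peak among them, so they describe the window and not Gli1 alone. Mapk7 and Mfap4 are both on chromosome 11, and Lrrc23 and Eno2 both on chromosome 6. Whether their windows share peaks was not tested.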

How the data were processed

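Peaks of 5 ChIP-seq libraries were analysed, and the 2 input libraries were not analysed here. The authors trimmed reads with Trim Galore, mapped them to mm10 with Bowtie 1.0.0 keeping uniquely mapped reads, and called GNP peaks with MACS2 at default parameters and Top2b peaks with HOMER. The control library was not given in the sources used here. The deposited GNP tables hold the pileup, a coverage signal in fragments at the summit, and, as other columns, the fold enrichment over local background and the −log10 of p-value and q-value, each printed without its decimal point. Division by 100000 gave the values used here, and p-values computed anew from pileup and background differed from them by at most 0.00022 (−log10) for WT Chd7 peaks. The deposited Top2b tables hold positions only, of 396 bp (WT) and 400 bp (Chd7-deficient).

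Genes and start sites were taken from GENCODE M21, and all annotated starts of a gene were used. Super-enhancer-like regions were stitched H3K27ac peaks ranked by width times pileup. Overlap meant at least 1 bp. Coordinates are 1-based. Sequences came from GRCm38 and RefSeq promoters, and motifs were searched as exact letters on both strands in 300 bp centred on the summit, Gli letters also over whole peaks. All 9 members were named, with each WT Chd7 peak, the H3K27ac peak at a start, the highest in the window and Top2b peaks over Chd7, and from 52 pathway genes in 5 lists at most 6 with the most WT Chd7 peaks. Likeness was read for the 3 members with the most Chd7 peaks, ties going to the higher fold. Members and lists were chosen with earlier results of these data known. Counts of called members were read beside the share over all genes or peaks, and no test was run, since each condition had 1 library. Depth is unknown, and counts depend on the peak threshold of each library. Alternatives were other windows, q-value limits, overlap rules, start rules and stitching rules, and WT Chd7 peaks without those shared with Chd7-deficient GNPs. Interval, window and stitching functions were tested on simulated data. Python 3.11.15, pandas 2.3.3, numpy 2.4.6, pysam 0.24.0, statsmodels 0.14.6, matplotlib 3.10.9 and samtools 1.23.1 were used.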

Additional observations from a re-analysis of the deposited data

How the results depend on the processing

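Of 53 recomputed values, 43 stayed within the 95% Wilson interval of the reported share or within 1.5 times the reported count. With only peaks of −log10 q of at least 10, the 9 windows held 55 H3K27ac peaks and 1 Chd7 peak, at 1 gene (Mycn), and 1.82% of the H3K27ac peaks carried Chd7. That limit kept 6.22% of all WT Chd7 peaks and 48.9% of all H3K27ac peaks. Under it, 0.688% of protein-coding genes had a WT Chd7 peak within 50 kb. The share of all H3K27ac peaks that carried Chd7 under this limit was not computed. The 1.82% therefore cannot be set against the 4.98% given above for all peaks. In the gene bodies alone and within 10 kb, 4 Chd7 peaks were left, at Ptch1, Sufu, Gli2 and Mycn, against 4.34% and 7.46% of all genes with one, so the Gli1 and Gli3 assignments rest on the 50 kb window. WT Top2b peaks numbered 13, 14 and 38 with gene bodies, 10 kb and 100 kb, and those of Chd7-deficient CGNs 21 with gene bodies. With a start site within 1 kb in place of direct overlap, 8 of 9 genes were marked by H3K27ac, all but Ccnd1. Without H3K27ac peaks near starts the super-enhancer-like regions were at 3 genes, Mycn dropping out. The shares of all genes under these start and region rules were not computed. These counts of 8 and 3 genes therefore have no background and cannot be set against the shares given above. No paired analysis was possible because each condition had 1 library. Without read counts, peaks under the threshold of a library cannot be told from no enrichment.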
